A study of Homo sapiens with 6 samples.

Results

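The genes described here are 10 members of the insulin-like growth factor (IGF) and insulin system: the IGF-binding proteins IGFBP1, IGFBP2, IGFBP3, IGFBP4, IGFBP6 and IGFBP7, the ligand IGF2, the docking proteins IRS1 and IRS2, and the insulin receptor INSR. They were taken by symbol from a table of 60504 genes, and each symbol had a single, protein-coding row. The cells were HCC827, a lung adenocarcinoma line of human origin with an activating EGFR mutation, and 3 libraries each came from 2D and 3D culture. Both cultures received RPMI medium with 10% fetal bovine serum, penicillin and streptomycin; the labels list no other agent for the cultures beyond a ROCK inhibitor in the Dispase used to passage gels. In the 2D group 1000000 cells were seeded in an uncoated flask with 10 mL of medium and passaged after 4 to 6 days. In the 3D group 50000 cells were seeded in a 100 µL droplet of Matrigel, a basement membrane gel of the growth factor reduced grade, under 1 mL of medium and kept for 12 to 16 days as tumoroids. Culture time, seeding number, medium volume and contact with gel therefore differed together with geometry and cannot be told apart. A single cell line was used. Nothing in the labels tells whether libraries of 1 group were grown separately; the p-values then reflect just the variation among these 6 libraries, part of which may be technical.

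IGF1 and IGF2 are secreted growth factors that signal through the IGF1 receptor and the insulin receptor. IGF-binding proteins hold the ligands outside the cell, prolong their life and limit or direct their access to receptors, and proteases release the ligands again. Activated receptors phosphorylate IRS1 and IRS2, which recruit PI3K and lead to AKT; AKT in turn keeps FOXO transcription factors out of the nucleus. IGFBP1, IRS2 and INSR are textbook FOXO targets, and IGFBP1 and IGFBP3 are also known to be induced by low oxygen. Serum contains IGFs and insulin, so both cultures were exposed to ligand from the medium. No ligand was measured in the medium or in the gel, so exposure need not have been equal.

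Values are TPM, each gene's share of a library's transcripts after scaling for transcript length, so levels can be compared between genes. Sequencing depth cannot be read from TPM and is unknown here. In bulk RNA, fewer cells expressing a gene and less RNA per cell cannot be told apart. All 7 epithelial markers chosen to check the line were measured and none passed the test; their sum was 4319 to 7937 TPM in 3D and 6437 to 8944 TPM in 2D. EPCAM lay between 567 and 631 TPM in every library, whereas the keratin KRT18 was lower in every 3D library than in any 2D library (1073 ± 385 against 1761 ± 191 TPM, SD, n = 3; limma, adjusted p = 0.0794), and the ratio of 3D to 2D means was 0.683 for KRT8 and 0.736 for KRT19. Some markers of other cell types were at or near 0: PTPRC of leukocytes reached at most 0.25 TPM, COL1A2 of fibroblasts 0.01 TPM and ALB of hepatocytes 0.77 TPM, and COL3A1 was listed at 0 throughout. Some summed marker levels nevertheless moved with the culture: 7 fibroblast markers, mostly COL1A1, summed to 6.99 to 12.24 TPM in 3D and 2.10 to 2.96 TPM in 2D, and 5 endothelial markers, led in 3D by KDR, to 1.51 to 4.01 and 0.68 to 1.48 TPM. The 5 hepatocyte markers summed to 152.6 to 220.3 TPM in 3D and 89.6 to 102.5 TPM in 2D, nearly all of it SERPINA1, while the sums of 5 leukocyte markers, nearly all CD68, overlapped (45.7 to 87.1 and 68.7 to 96.4 TPM). COL1A1 and SERPINA1, each the only tested marker of its list, were called higher in 3D (limma, adjusted p = 0.0170 and 0.0235). Their log2 fold changes were 1.33 and 0.83. CD68, the only tested leukocyte marker, did not pass. The part of all these markers in the results below was not tested. Of the 15042 genes that averaged 1 TPM or more, 10.2% were called higher and 2.12% lower in 3D (limma on log2(TPM + 1), Benjamini-Hochberg adjusted p under 0.05). The median gene lay at a log2 fold change of 0.12, and at -0.01 with median-ratio scaling and -0.04 with quantile normalization.

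Of the 10 genes, IGFBP3 rose in 3D, none fell, 7 did not pass the test, and IGFBP7 and IGF2 were below the filter on low values. The 1 called of 8 tested is 12.5%, against 10.2% of all tested genes, so the share called was near the background. Of the 8, 6 had a positive and 2 a negative log2 fold change, with a median of 0.63 against 0.12 for all tested genes. All 3D libraries lay above all 2D libraries in 4 of the 8 (IGFBP1, IGFBP3, IRS1 and INSR), an arrangement that 27.3% of all tested genes showed, and in none did they all lie below (9.4% of all tested genes).

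**Figure D1:**
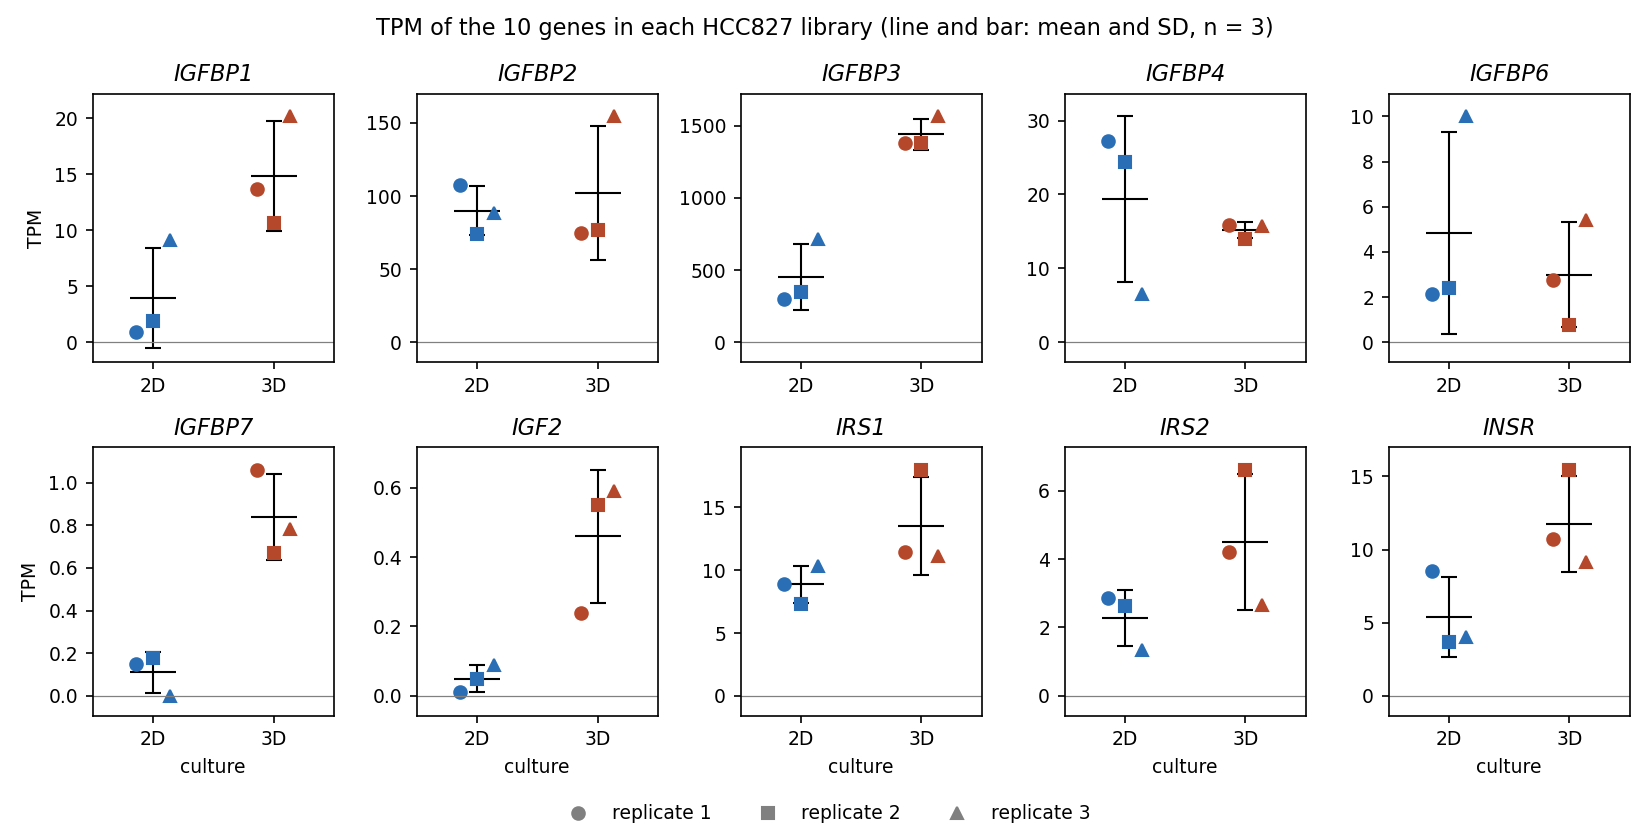
TPM (vertical axis, own linear scale per gene) of each gene in the 3 libraries of 2D and 3D culture; symbols mark the replicate number, the line is the mean and the bar the SD (n = 3). IGFBP3 lies at 1377 to 1566 TPM in 3D and 299 to 718 TPM in 2D, and 2D replicate 3 is the highest 2D library for IGFBP1, IGFBP3 and IGFBP6 and the lowest for IGFBP4.

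IGFBP3, the main carrier of IGFs in serum, was by far the most abundant of the 10 genes in both cultures. Its identifier is ENSG00000146674, and GENCODE 29 places it on the minus strand of chromosome 7 at 45912245 to 45921874 (GRCh38). It measured 1379.5, 1377 and 1566 TPM in the 3D libraries and 299, 346 and 718 TPM in the 2D libraries. The groups did not overlap, and within 2D the third library stood 2.23 times above the mean of the other 2D libraries. By mean TPM it was number 110 of all 60504 genes in 3D and number 235 in 2D. The mean was 1441 ± 108 TPM in 3D against 454 ± 230 in 2D (SD, n = 3 each), a ratio of 3.17 and a log2 fold change of 1.77 (SE 0.31; limma, adjusted p = 0.0149). It missed the threshold when 3D replicate 1, 3D replicate 2 or 2D replicate 2 was dropped and when low genes were not filtered out (limma, adjusted p = 0.0613, 0.0631, 0.0639 and 0.0551), while the log2 fold change stayed between 1.53 and 2.16 over the 18 alternatives.

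To show the promoter window of the gene whose call the comparison turned on, the 250 bases before the RefSeq start of IGFBP3, at 45921272, are given in gene orientation (RefSeq, GRCh38.p14, chr7:45921273-45921522, minus strand), with a TATATA stretch in capitals. The GENCODE span given above reaches further because 1 of 11 GENCODE transcripts starts at 45921874, and the printed bases lie in an intron of that transcript. The IRS2 stretch (chr13:109786584-109786833, minus strand) is given beside it because, among the 9 windows found, it alone held CAAAACA, the forkhead core of insulin response sequences, here as TGTTTTG in capitals.
IGFBP3: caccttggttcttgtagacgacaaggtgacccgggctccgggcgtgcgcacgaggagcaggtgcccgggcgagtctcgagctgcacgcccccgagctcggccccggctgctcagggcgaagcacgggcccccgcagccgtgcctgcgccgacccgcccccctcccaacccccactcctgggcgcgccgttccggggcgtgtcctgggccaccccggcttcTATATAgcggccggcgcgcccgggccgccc
IRS2: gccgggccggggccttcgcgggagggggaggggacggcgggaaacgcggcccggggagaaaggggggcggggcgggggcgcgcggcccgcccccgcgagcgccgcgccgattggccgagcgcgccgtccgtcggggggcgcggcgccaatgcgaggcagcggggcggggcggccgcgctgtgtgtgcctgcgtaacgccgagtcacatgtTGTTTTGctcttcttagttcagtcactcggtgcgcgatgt
Promoter windows of 300 bases (250 before and 50 after the start) were matched for 7 of the 10 symbols, 9 windows in all. IGFBP1, IGFBP7 and IGF2 had no window and were not searched. TATATA began 30 bases before the IGFBP3 start; 3.99% of 35116 promoter windows hold this stretch. CAAAACA, searched on both strands, began 40 bases before the IRS2 start and occurs in 4.92% of all windows. ACGTG is a form of the core that hypoxia-inducible factors recognise. It was found on either strand in 2 of the 9 windows, in IRS1 and in 1 of 3 IGFBP2 windows. Over all windows, 21.4% held it. GCGTG, the other form of that core, was not searched for, though the printed IGFBP3 stretch contains it. GC content was 74.7% in the IGFBP3 window and 75.7% in the IRS2 window, against a median of 58.7% over all windows. These matches describe letters in the window and say nothing of binding in these cells.

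IGFBP1, which the liver secretes when insulin is low, is the neighbour of IGFBP3 on chromosome 7 (45888357 to 45893668, plus strand), with 18.6 kb between them and their 3′ ends facing. It measured 13.7, 10.6 and 20.2 TPM in 3D and 0.94, 1.89 and 9.10 TPM in 2D. All 3D libraries were above all 2D libraries, but 2D replicate 3 came close to 3D replicate 2. The ratio of the means was 3.73, with 14.8 ± 4.89 TPM in 3D and 3.98 ± 4.46 in 2D (SD, n = 3), and the log2 fold change was 2.00 with a 95% interval from 0.68 to 3.32. The gene missed the threshold with all libraries (limma, adjusted p = 0.0588). Without 2D replicate 3 it was called, at a log2 fold change of 2.70 (limma, adjusted p = 0.00354), in a fit that called 10.5% of genes higher. With any other single library left out it was not called (limma, adjusted p from 0.117 to 0.172).

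IGFBP2, a binding protein abundant in fetal tissue and in many tumours, was the next most abundant of the 10 genes. It measured 74.7, 77.0 and 154.6 TPM in 3D and 107.3, 74.25 and 88.6 TPM in 2D. The groups overlapped and 3D replicate 3 was the highest library. The log2 fold change was 0.11, with a 95% interval from -0.57 to 0.79 (limma, adjusted p = 0.821), and its sign turned without 3D replicate 3, at -0.23. IGFBP5, which lies 7.7 kb from IGFBP2 on chromosome 2, was listed at 0.02 TPM or less in every library.

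IGFBP4, an inhibitor of IGF action that the protease PAPPA cleaves, was steady in 3D and uneven in 2D. It measured 15.9, 13.9 and 15.8 TPM in 3D and 27.2, 24.4 and 6.48 TPM in 2D. The first and second 2D libraries were above every 3D library and 2D replicate 3 was below them all. The log2 fold change was -0.11, with a 95% interval from -1.19 to 0.96 (limma, adjusted p = 0.887). Without 2D replicate 3 it was called lower, at -0.73 (limma, adjusted p = 0.0222), where 3.72% of genes were called lower. PAPPA itself was listed at 0.04 TPM or less and PAPPA2 at 0.07 or less.

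IGFBP6, which binds IGF2 in preference to IGF1, measured 2.78, 0.78 and 5.43 TPM in 3D and 2.15, 2.39 and 10.0 TPM in 2D. The groups overlapped, and the third library was the highest of each culture. The log2 fold change was -0.48, with a 95% interval from -1.87 to 0.91 (limma, adjusted p = 0.612). IGFBP7, a relative with low affinity for IGFs, measured 1.06, 0.67 and 0.78 TPM in 3D, and 0.15, 0.18 and 0 in 2D. It was below the filter, and every 3D library was above every 2D library, as in 15.2% of genes with means from 0.1 to 1 TPM.

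**Figure D2:**
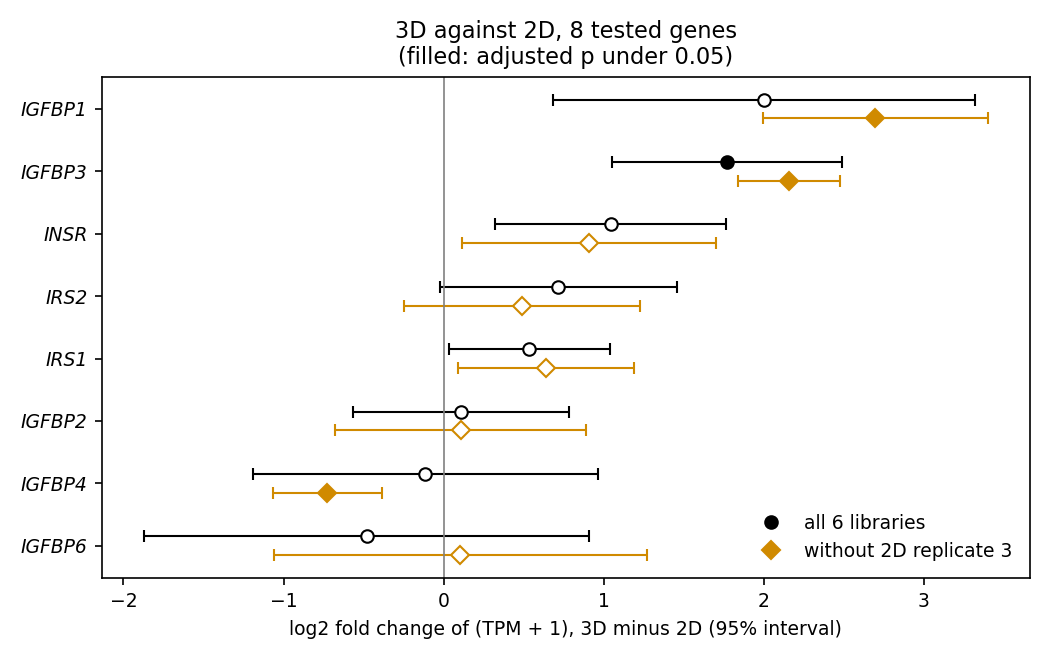
Log2 fold change of TPM + 1 (horizontal axis, 3D minus 2D, 95% interval) for the 8 tested genes with all 6 libraries (circles) and without 2D replicate 3 (diamonds); filled symbols passed the threshold. IGFBP3 passed in both fits, and IGFBP1 (2.70) and IGFBP4 (-0.73) passed without 2D replicate 3.

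The IGFBP genes together measured 1488, 1480 and 1763 TPM in 3D and 437, 449 and 832 TPM in 2D, summed over IGFBP1 to IGFBP7. IGFBP3 made up 92.7%, 93.0% and 88.8% of that sum in 3D and 68.5%, 77.0% and 86.3% in 2D. IGFBP2 made up 5.02% to 8.77% in 3D and 10.6% to 24.6% in 2D, and IGFBP4 0.894% to 1.07% and 0.779% to 6.22%. Each 3D library thus had a larger IGFBP sum and a higher IGFBP3 share than any 2D library. On both counts 2D replicate 3 was the 2D library nearest to the 3D libraries. IGFBP3 was most of the sum in every library, so the larger sum mainly repeats its own rise. In TPM, IGFBP2, IGFBP4 and IGFBP6 overlapped between cultures. The lower IGFBP2 share in 3D is therefore not a lower IGFBP2 level.

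**Figure D3:**
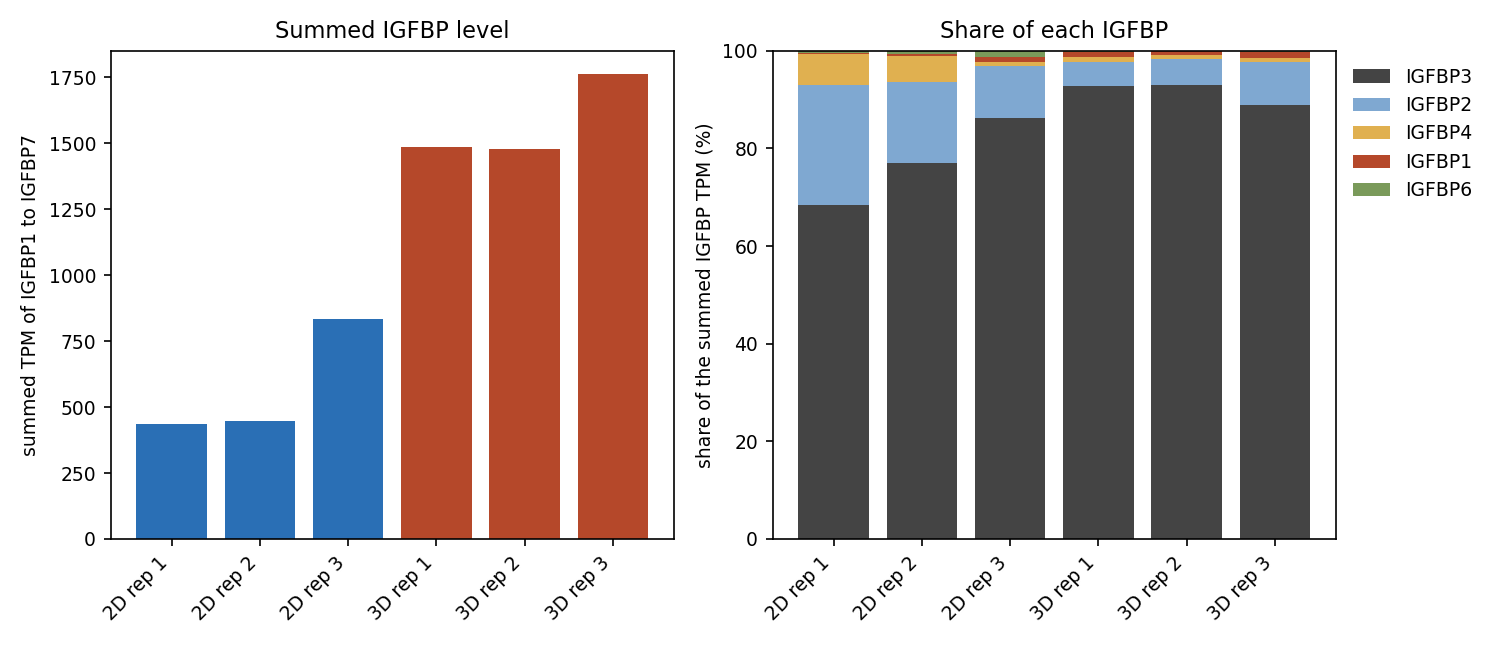
Left, summed TPM of IGFBP1 to IGFBP7 in each library (bars from 0); right, the share of that sum held by each gene in percent, with IGFBP5 and IGFBP7 too small to draw. The sum is 1480 to 1763 TPM in 3D and 437 to 832 TPM in 2D, and IGFBP3 is the largest share in every library.

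The third 2D library stood apart in several of these genes, and other genes moved with it. In 2D replicate 3 IGFBP1 was 6.43 times, IGFBP6 4.41 times and IGFBP4 0.251 times the mean of the other 2D libraries. STC1, which encodes a hormone that inhibits the IGFBP4 protease PAPPA and is induced by low oxygen, measured 1.12, 1.25 and 22.9 TPM in 2D and 17.1, 22.5 and 18.1 in 3D. DDIT4, an mTORC1 inhibitor induced by low oxygen and other stress, measured 182, 180 and 522 TPM in 2D and 70.4, 159 and 292 in 3D. Both were highest within 2D in the third library. There both lay above every 3D library, STC1 narrowly (22.9 against at most 22.5 TPM). STC1 and DDIT4 were chosen after their values were seen, and no wider set of low-oxygen genes was examined. The part of this library's state in the IGFBP values was not tested.

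IGF2, the fetal IGF ligand made from an imprinted locus, was the lowest of the 10 genes by mean. It measured 0.24, 0.55 and 0.59 TPM in 3D and 0.01, 0.05 and 0.09 TPM in 2D. The groups did not overlap, but all libraries were below 1 TPM and the gene was not tested. IGF2 shares sequence with the read-through gene INS-IGF2, so the split of reads between the pair is uncertain. H19, a noncoding RNA made from the same imprinted region, 127.6 kb from IGF2 on chromosome 11, measured 16.3, 18.8 and 51.0 TPM in 3D and 0.63, 1.48 and 2.46 TPM in 2D. All 3D libraries were above all 2D libraries, and H19 was called at a log2 fold change of 3.44 (SE 0.45; limma, adjusted p = 0.00546). Over the alternatives in which it was tested the log2 fold change ran from 2.24 to 4.13, and it was called in each (limma, highest adjusted p 0.0312). IGF1, the other ligand, measured 3.79, 3.13 and 2.56 TPM in 3D and 1.04, 1.28 and 0.29 in 2D and was called higher at 1.18 (log2 fold change, SE 0.27; limma, adjusted p = 0.0332), but missed the threshold once the first or second library of either culture was dropped, without the filter, with a pseudocount of 0.1 and with quantile normalization (limma, adjusted p up to 0.126). INS was listed at 0 in every library.

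INSR, the insulin receptor, measured 10.7, 15.5 and 9.16 TPM in 3D and 8.54, 3.66 and 4.03 TPM in 2D. All 3D libraries were above all 2D libraries, narrowly for 3D replicate 3 and 2D replicate 1. The ratio of the means was 2.18 and the log2 fold change 1.04, with a 95% interval from 0.32 to 1.76. INSR missed the threshold with all libraries (limma, adjusted p = 0.0658). It passed without 2D replicate 1, at 1.37 (limma, adjusted p = 0.0320). With any other single library left out it did not pass (limma, adjusted p from 0.0666 to 0.204). The IGF1 receptor, IGF1R, measured 5.05 to 7.39 TPM in 3D and 3.84 to 6.82 in 2D (log2 fold change 0.07, SE 0.23). IGF2R, which clears IGF2, measured 32.85 to 53.5 TPM in 3D and 21.4 to 38.25 in 2D (0.44, SE 0.25). Both receptors overlapped between cultures and neither passed the test; they are given for comparison, chosen after their values were seen.

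IRS1, the docking protein that links the receptors to PI3K, measured 11.4, 18.0 and 11.1 TPM in 3D and 8.93, 7.35 and 10.3 TPM in 2D. The groups did not overlap, by a narrow margin between 3D replicate 3 and 2D replicate 3. The log2 fold change was 0.54, with a 95% interval from 0.03 to 1.04 (limma, adjusted p = 0.139). IRS2, its relative with the forkhead core in the promoter window printed above, measured 4.20, 6.61 and 2.67 TPM in 3D and 2.85, 2.63 and 1.34 TPM in 2D. The groups overlapped through 3D replicate 3 and the first 2D library, and the log2 fold change was 0.72, with a 95% interval from -0.02 to 1.46 (limma, adjusted p = 0.169). For INSR, IRS1 and IRS2 alike, 3D replicate 2 was the highest library and 3D replicate 3 the lowest of 3D. Neither IRS gene was called in any alternative.

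Ordered by mean TPM in 3D, the genes ran IGFBP3, IGFBP2, IGFBP4, IGFBP1, IRS1, INSR, IRS2, IGFBP6, IGFBP7 and IGF2. IGFBP3, IGFBP2 and the rest were apart in every library, IGFBP4, IGFBP1, IRS1 and INSR overlapped from each to the next, as did IRS2 with IGFBP6 and IGFBP6 with IGFBP7, while INSR stood above IRS2 and IGFBP7 above IGF2. In 2D the order was IGFBP3, IGFBP2, IGFBP4, IRS1, INSR, IGFBP6, IGFBP1, IRS2, IGFBP7 and IGF2. There IGFBP3 and IGFBP2 again stood apart, every neighbour from IGFBP4 to IRS2 overlapped, IRS2 stood above IGFBP7, and IGFBP7 overlapped IGF2. IGFBP1 was thus number 4 in 3D and number 7 in 2D.

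The 3 genes named next followed the IGFBP3 pattern most closely over the 6 libraries, by Pearson r of log2(TPM + 1) among 8073 other protein-coding genes averaging 10 TPM or more. They were the interleukin 1 receptor IL1R1 (r = 0.998), ERRFI1, a feedback inhibitor of EGFR (r = 0.995), and the read-through gene FAM47E-STBD1 (r = 0.994). ERRFI1 measured 259, 290 and 309 TPM in 3D and 85.8, 86.2 and 153 in 2D, so that it too was highest within 2D in the third library. IL1R1 spanned a smaller range, 12.6 to 13.5 TPM in 3D and 8.09 to 10.7 in 2D. The points share libraries and the split between cultures, and these genes were picked for their likeness.

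Of 15 tested FOXO factors and targets other than the 10 genes, 6 rose (40%, against 10.2% of all tested genes). The other 9 did not pass the test, and none fell. The list, chosen with earlier results of these data known, had a median log2 fold change of 0.54 against 0.12 for all genes. The 6 were the factors FOXO3 and FOXO6 and the targets SESN3, GADD45A, CITED2 and CCNG2. The targets TXNIP, CDKN1B, PDK4, ERBB3, SESN1, BCL2L11 and BCL6 did not pass (log2 fold change -0.07 to 0.73). IGFBP1, IRS2 and INSR, FOXO targets outside this count, did not pass with all libraries either. SESN3, a stress protein that restrains mTORC1 and a FOXO target, measured 5.33, 4.05 and 3.93 TPM in 3D and 0.23, 0.33 and 0.65 in 2D, a log2 fold change of 1.96 (SE 0.22; limma, adjusted p = 0.00334). GADD45A, which arrests the cell cycle after stress, measured 133, 133 and 90.2 TPM in 3D and 52.1, 45.1 and 30.5 in 2D (1.47, SE 0.24). FOXO6 measured 4.16 to 6.08 TPM in 3D and 1.18 to 3.03 in 2D (1.12, SE 0.27). The groups of all 3 genes were apart. SESN3 was called in each alternative in which it was tested, GADD45A was no longer called once 3D replicate 1 or 2 was left out (limma, highest adjusted p 0.0581), and FOXO6 lost it in 9 alternatives (limma, adjusted p up to 0.133). FOXO1, the best known factor of the family, measured 1.41 to 2.37 TPM in 3D and 1.11 to 1.63 in 2D and did not pass (0.25, SE 0.22). FOXO3 was more abundant and was called higher, with means of 16.7 TPM in 3D and 8.42 in 2D (0.90, SE 0.18; limma, adjusted p = 0.0214). FOXO4 averaged 13.3 TPM in 3D and 8.98 in 2D and did not pass (0.54, SE 0.24; limma, adjusted p = 0.172). The count of 6 fell to 1 without 3D replicate 1 or 3D replicate 2, 3 without 2D replicate 1 and 2 without 2D replicate 2, where 2.44%, 2.61%, 4.84% and 2.82% of all genes were called higher. It was 3 with median-ratio scaling (6.43% of all genes) and 2 with no filter (2.15%).

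**Figure D4:**
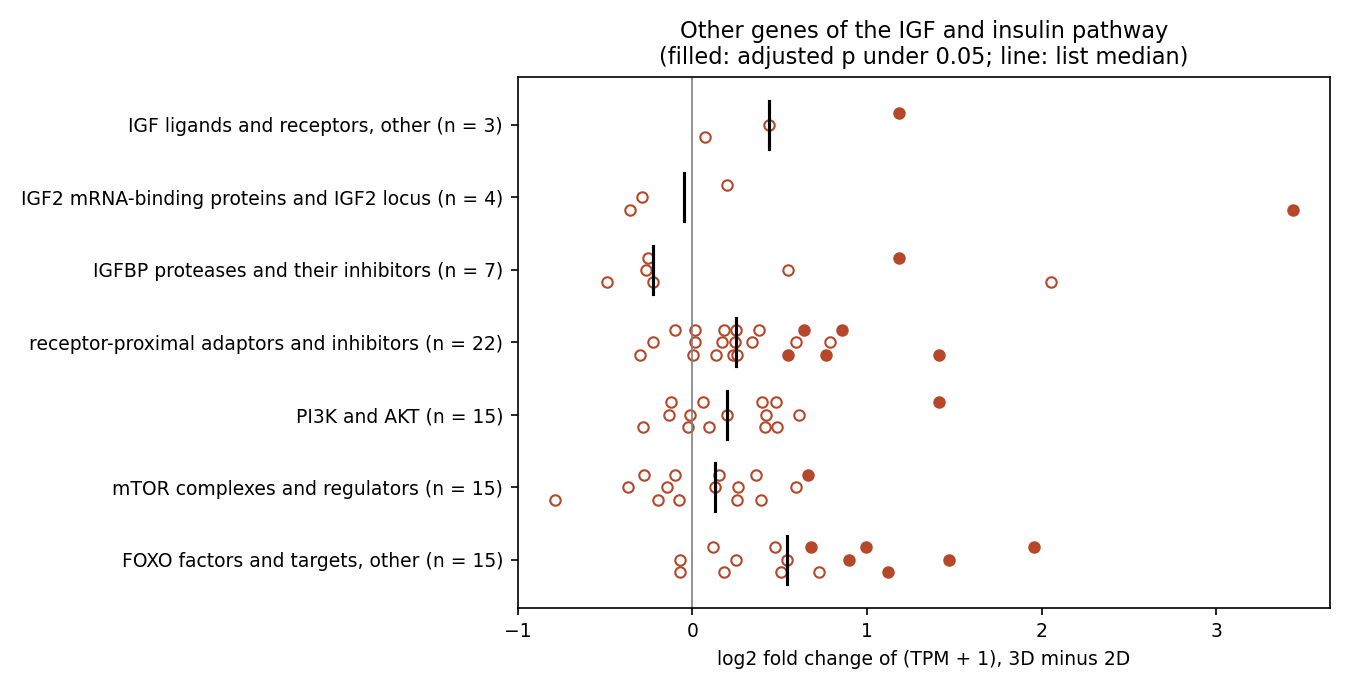
Log2 fold change of TPM + 1 (horizontal axis, 3D minus 2D) of the tested genes of 7 pathway lists; each point is a gene, filled where it passed the threshold, and the black line is the list's median. All filled points lie above 0, and the FOXO list has the most of them, 6 of 15.

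Among 22 tested adaptors and inhibitors that act at the receptors, 5 rose, 17 did not pass the test and none fell (22.7% higher against 10.2% of all tested genes, median log2 fold change 0.25). This list too was chosen with earlier results of these data known, so its share is not independent of them. The 5 were the suppressors of cytokine signalling SOCS2, SOCS1 and SOCS6 and the tyrosine phosphatases PTPN1 and PTPN2, which dephosphorylate receptors and their partners. SOCS2, a feedback inhibitor of growth hormone and IGF signalling, measured 19.5, 22.3 and 25.6 TPM in 3D and 5.94, 8.67 and 9.00 in 2D, a log2 fold change of 1.41 (SE 0.19; limma, adjusted p = 0.00601), and was called in every alternative. SOCS1 (0.86, SE 0.21) and SOCS6 (0.77, SE 0.15) lost their calls in 9 and 5 alternatives, both of them when the first or second library of either culture was dropped (limma, highest adjusted p 0.138 and 0.0842). The count of 5 fell to 2 with median-ratio scaling and to 1 with quantile normalization, where 6.43% and 5.78% of all genes were called higher. It fell to 1 without 3D replicate 1, 3D replicate 2, 2D replicate 1 or 2D replicate 2 (2.44%, 2.61%, 4.84% and 2.82% of all genes), to 2 with no filter (2.15%), and to 2 without 3D replicate 3 (10.7%).

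Among 15 tested genes of PI3K and AKT, 1 rose and 14 did not pass the test (6.7% higher, below the 10.2% of all tested genes; median 0.20). It was PIK3R1, the regulatory PI3K subunit that binds phosphorylated IRS proteins, with 30.9, 34.6 and 48.2 TPM in 3D and 16.8, 15.0 and 9.33 in 2D, a log2 fold change of 1.41 (SE 0.25; limma, adjusted p = 0.0151), and it missed the threshold when either second library was dropped and without the filter (limma, highest adjusted p 0.0598). Among 15 mTOR genes 1 rose, RICTOR of the mTORC2 complex, and 14 did not pass (again 6.7% against 10.2%; median 0.13); RICTOR averaged 15.1 ± 2.54 TPM in 3D against 9.15 ± 1.40 in 2D (SD, n = 3) and lost its call in 12 of the 18 alternatives. Among 7 tested genes listed as IGFBP proteases and inhibitors 1 rose, the membrane serine protease TMPRSS2, and 6 did not pass. That is 14.3%, near the 10.2% of all tested genes, with a median of -0.23. TMPRSS2 averaged 4.06 ± 0.539 TPM in 3D against 1.34 ± 0.856 in 2D. It lost its call in 9 of the 17 alternatives in which it was tested. Whether TMPRSS2 acts on IGFBPs was not tested, and without it the list holds no call. Among 3 tested ligands and receptors other than the 10 genes 1 rose, IGF1, and among 4 tested IGF2 mRNA-binding proteins and IGF2-locus genes 1 rose, H19; lists this short say little against a background of 10.2%. IGF2BP3, which binds IGF2 mRNA, measured 33.5 to 35.1 TPM in 3D and 39.9 to 47.4 in 2D, with non-overlapping groups and a log2 fold change of -0.35, and did not pass the test (limma, adjusted p = 0.0998), but was called lower with median-ratio scaling, at -0.50 (limma, adjusted p = 0.0386).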

How the data were processed

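Poly(A) RNA of 3 libraries per culture was sequenced as single-end reads of 75 nt from a directional kit, per the labels' protocols. The authors deposited TPM per gene, rounded to 2 decimals, and each column sums to 1000000 within rounding; cutadapt 2.3, STAR 2.7.0d, RSEM 1.3.1 and hg38 appear in the submitters' processing notes, with no order stated. Neither annotation release nor strand setting is given in the sources used here. Without depth, no counting interval is given.

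Genes averaging 1 TPM or more (15042) were fitted on log2(TPM + 1) with limma 3.58.1 (trend) in R 4.3.3, 3D against 2D, two-sided; p-values were adjusted across those genes by Benjamini-Hochberg, and the threshold was 0.05. This scale understates the change of low genes. Simulated data were used to test the fit. For single genes an exact test of 3 against 3 cannot go below p = 0.1. The 10 genes and the lists were chosen with earlier results of these data known. In the PI3K and AKT list, 1 gene is not reported here. Named besides the 10 were, per list, up to 3 called genes in each direction with the largest change, or the 2 most abundant where none was called, and the 3 genes most like a called member. STC1, DDIT4, IGF1R, IGF2R, FOXO1, FOXO3, FOXO4, PTPN1, PTPN2, IGFBP5, PAPPA, PAPPA2, INS, IGF2BP3, CTSD, KRT8, KRT18 and KRT19 were added after their values were seen. So were CITED2, CCNG2, TXNIP, CDKN1B, PDK4, ERBB3, SESN1, BCL2L11 and BCL6 of the FOXO list. The markers COL1A1, KDR, SERPINA1 and CD68 were also named after their values were seen. Alternatives covered pseudocounts, filters, scaling, gene sets, variance models, the replicate block and leaving out libraries. Positions come from GENCODE 29 and promoter windows from RefSeq (GRCh38.p14).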

Additional observations from a re-analysis of the deposited data

How the results depend on the processing

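The log2 fold changes of IGFBP1, IGFBP3, INSR, IRS1 and IRS2 stayed positive in each alternative run, and so did those of the 11 pathway genes named by rule. IGFBP2 turned negative with median-ratio scaling (-0.042), without both libraries numbered 3 (-0.233), without 3D replicate 3 (-0.230) and without 2D replicate 2 (-0.020). IGFBP4 turned positive without 2D replicate 1 (0.230) and 2D replicate 2 (0.155), and IGFBP6 without 3D replicate 2 (0.009) and 2D replicate 3 (0.103). None of these reversed values passed the threshold, and the cause was not tested. With single libraries left out, IGFBP2 ran from -0.230 to 0.290, IGFBP4 from -0.727 to 0.230 and IGFBP6 from -0.917 to 0.103.

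Among the 10 genes, the number called higher was 0 with no filter. It was 2 (IGFBP3 and IGFBP1) with protein-coding genes only, with the replicate block and without both libraries numbered 3; in the last, 1 (IGFBP4) was called lower. With single libraries left out it ran from 0 to 2, and the number called lower from 0 to 1. Over all genes, 1536 were higher and 319 lower. The counts were 729 and 86 with no filter, 967 and 612 with median-ratio scaling (61.2% higher, against 82.8%), 869 and 576 with quantile normalization (60.1% higher), and 2464 and 1356 without both libraries numbered 3. With single libraries left out they ran from 367 to 1607 and from 29 to 563. Deviations from the group means correlated at 0.101, 0.036 and 0.185 for replicates 1, 2 and 3, and not every library correlated best with its own number. Deviations within a group are not independent of one another, so these values cannot decide whether equal numbers mark a shared batch. With the replicate block 1479 genes were higher and 395 lower, and IGFBP1 passed (limma, adjusted p = 0.0160).

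Counts for the pathway lists were repeated under the same settings, a step chosen after seeing the data. FOXO genes called higher numbered 2 with no filter and 3 with median-ratio scaling, and 1 to 5 with single libraries left out. Receptor-proximal genes numbered 2 with no filter and with median-ratio scaling, 1 with quantile normalization, 3 with the replicate block, and 1 to 4 with single libraries left out. PI3K and AKT genes numbered 0 with no filter, 2 with the replicate block, 3 without both libraries numbered 3, and 0 to 1 with single libraries left out. The mTOR count was 0 with a pseudocount of 5, with no filter, under both scalings, without mitochondrial-genome genes, with eBayes without trend and with any single library left out. The IGFBP protease count was 0 with a pseudocount of 0.1, with no filter, with the filter at 5 TPM and under both scalings, 2 without both libraries numbered 3, and 0 to 2 with single libraries left out. The count of other ligands and receptors was 0 with a pseudocount of 0.1, with no filter, with the filter at 5 TPM and with quantile normalization, and 0 to 1 with single libraries left out. The IGF2-locus count was 0 only with protein-coding genes, a setting that leaves H19 out. Pathway genes called lower were IGF2BP3 with median-ratio scaling (log2 fold change -0.50), and the protease CTSD when 3D replicate 3 (-0.61) or both libraries numbered 3 (-0.52) were dropped.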
